A study of Mus musculus with 6 samples.

Results

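Collagen chain genes were compared between 3 hearts labelled Wtap-CKO and 3 Wtapflox/flox hearts (written Wtap-flox). The chains were chosen by name, as protein coding genes whose symbol joins Col, a type number, the letter a and a chain number. They were 44 of the 54532 genes measured, of which 22046 were protein coding. By type, 11 were fibrillar, 6 belonged to the basement membrane collagen type IV and 27 to other types. Whole hearts were taken at an age of 4 days and their polyadenylated RNA was sequenced, and the submitters described the 3 hearts of a group as independent biological replicates. Wtap-CKO denotes the conditional knockout of Wtap, whose protein helps hold and place the methyltransferase that puts N6-methyladenosine on messenger RNA. Wtap-flox hearts carried the floxed allele on both chromosomes. Neither the driver of Cre nor the exons removed were stated in the labels, so the cells that lost the gene are not known here.

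Collagens are matrix proteins whose chains wind around each other in threes into a stiff helix, most often after modification in the endoplasmic reticulum. Fibrillar collagens assemble into the cables that carry tension in the heart wall, where types I and III are made mainly by fibroblasts. Type IV forms the sheet-like network of basement membranes around cardiomyocytes and vessels, and the other types decorate fibrils, link matrix to cells or form networks of their own.

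Levels are FPKM, in which gene length and a scale factor per library are divided out, so that chains can be compared with each other. The factors implied by the values ran from 0.9256 to 1.0618 and equalled median-ratio factors. Such a factor is the median over genes of a library's reads relative to the mean library, so libraries were not set to equal totals. The libraries held 15649028 to 18045599 fragments counted in genes, and 1 fragment in a gene of 1 kb was worth 0.0564 to 0.0647 FPKM. Wtap itself stood at 9.32, 7.75 and 9.46 FPKM in Wtap-CKO and at 7.77, 8.74 and 10.9 FPKM in Wtap-flox. This is a log2 fold change of -0.04 (95% interval -0.37 to 0.29, adjusted p = 0.893, limma). The values count the whole gene, so they do not check the labels, and each direction below rests on the labels. Wtap-CKO 3 correlated less closely with its group (0.9573 and 0.9654, Pearson, log2 scale) than the other Wtap-CKO libraries did with each other (0.979). The hearts held cardiomyocyte transcripts at high levels, with the myosin gene Myh6, named after its values were seen, at 2888 to 3221 FPKM in Wtap-CKO and 2495 to 3883 FPKM in Wtap-flox.

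Of the 44 collagen chains, 5 were higher in Wtap-CKO, namely Col8a1, Col20a1, Col11a1, Col12a1 and Col9a2. No chain of the abundant types I, III, IV, V and VI passed the test. Col8a1, Col11a1, Col12a1 and Col9a2 had 2.40 to 5.47 times their Wtap-flox mean. Col20a1 had 14.8 times its Wtap-flox mean, on 55 Wtap-flox reads, and its value is uncertain because a transcript overlaps it. The 5 stood at or below 10.4 FPKM in each library. The leading chains Col4a1, Col4a2, Col3a1 and Col1a1 stood at 139 to 398 FPKM in Wtap-CKO. Chains were tested with limma on log2(FPKM + 1) over every gene averaging 1 FPKM or more, a threshold that 26 chains reached and 18 did not. Of the 26, 5 were higher and 0 lower at an adjusted p under 0.05 (Benjamini-Hochberg), where 9.91% of 12568 genes tested were higher, 6.69% lower and 16.6% changed in either direction. At an unadjusted p under 0.05, 6 chains were higher and 4 lower, and limma-voom on the recovered reads called 5 higher and 2 lower. The median log2 fold change of the 26 chains was 0.04, beside 0.00 for all genes tested. The Wtap-CKO and Wtap-flox values lay apart for 11 of the 26 chains (42.3%), 9 with Wtap-CKO above and 2 with Wtap-CKO below, while groups lay apart for 37.1% of all genes tested. Col20a1 reached the threshold through its Wtap-CKO values alone, as did the uncalled Col8a2, so the counts over chains that passed are descriptions.

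The direction of changed genes over the whole table depended on scaling. In the FPKM as given, 59.7% of 2086 changed genes were higher in Wtap-CKO, beside 49.3% with upper-quartile scaling and 33.3% with each library set to the same total (TPM). Summed over all genes, the FPKM as given came to 357870.5 to 388328.2 in Wtap-CKO and 315631.9 to 339917.4 in Wtap-flox. TPM scaling removes that difference, and with it the median over all genes moved by -0.13 on the log2 scale. The 5 called chains were higher under each of 17 alternatives that tested them, TPM scaling included.

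**Figure D1:**
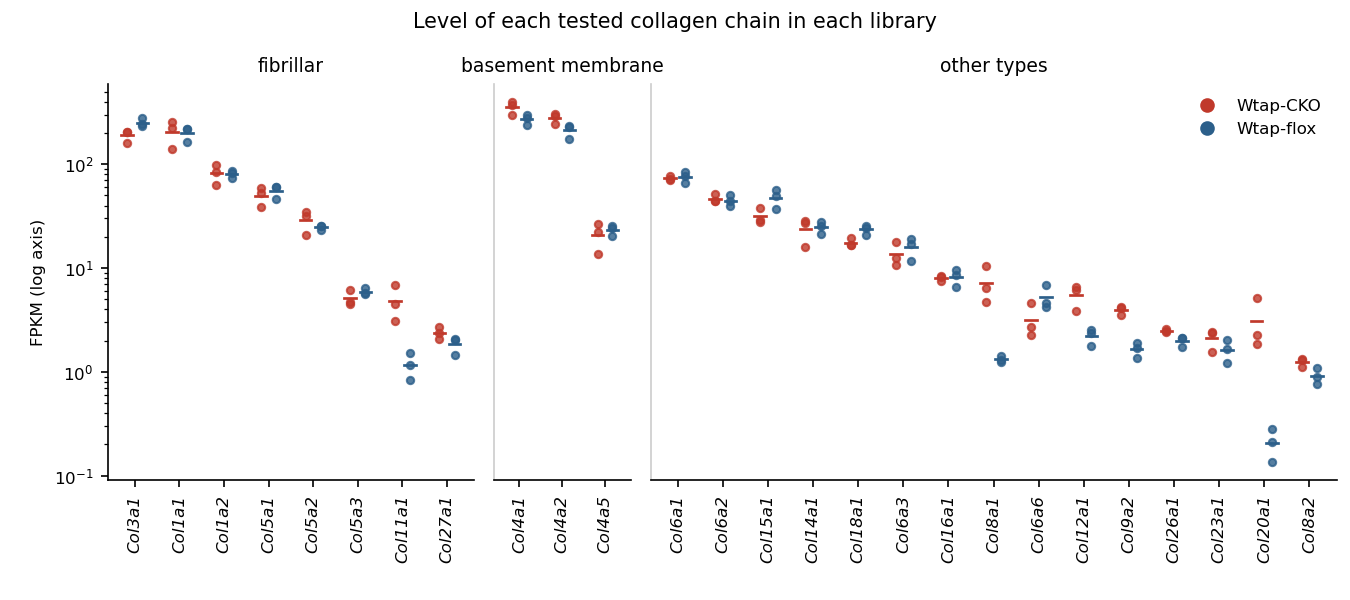
FPKM on a log axis of the 26 tested collagen chains in each library, Wtap-CKO (red) left of Wtap-flox (blue), with a bar at each mean (n = 3 per group). Type IV and types I and III stand at the top, and the red and blue points of Col8a1, Col11a1, Col12a1, Col9a2 and Col20a1 lie apart.

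Col8a1 encodes a short-chain collagen that forms hexagonal networks in vessel walls and in the membrane under the corneal endothelium. Its level was 10.4, 6.46 and 4.75 FPKM in Wtap-CKO, against 1.3, 1.41 and 1.24 FPKM in Wtap-flox. The lowest Wtap-CKO heart stood above the highest Wtap-flox heart, and Wtap-CKO hearts differed more among themselves. On the log2(FPKM + 1) scale, which understates changes near 1 FPKM, the difference was 1.77 (SE 0.22, adjusted p = 0.00214, limma), and the ratio of means was 5.47. With any 1 library left out the adjusted p stayed at or below 0.013. Its partner Col8a2, the other type VIII chain, stood at 1.32, 1.31 and 1.10 FPKM in Wtap-CKO and at 0.882, 1.08 and 0.754 FPKM in Wtap-flox. Those groups also lay apart, by a narrow margin, with a log2 fold change of 0.24 and a 95% interval of -0.07 to 0.55 (adjusted p = 0.265, limma).

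Col11a1 was the fibrillar chain that differed. Its product belongs to the minor fibrillar type XI, which starts and limits fibrils in cartilage and forms mixed molecules with type V chains elsewhere. The values were 6.79, 4.49 and 3.10 FPKM in Wtap-CKO and 0.837, 1.5 and 1.17 FPKM in Wtap-flox. Each Wtap-CKO heart exceeded each Wtap-flox heart, with Wtap-CKO 1 highest. The log2 fold change was 1.38 (SE 0.23, adjusted p = 0.0062, limma), and the ratio of means was 4.10.

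FACIT collagens sit on the surface of fibrils. Of their 5 tested chains 3 were higher and 0 lower, where 9.91% of all tested genes were higher and 6.69% lower. The median log2 fold change of the 5 was 0.91. Col20a1, among the higher chains, reached the threshold for testing through its Wtap-CKO values alone. Col12a1, whose type XII product binds type I fibrils in tendon and other tissue under tension, stood at 6.61, 6.11 and 3.89 FPKM in Wtap-CKO and at 2.37, 2.54 and 1.78 FPKM in Wtap-flox. The groups did not overlap, although Wtap-CKO 3 was nearer to Wtap-flox than the other Wtap-CKO hearts. The difference was 1.0 (SE 0.18, adjusted p = 0.00791, limma), with a ratio of means of 2.48. Col9a2, a chain of type IX that coats cartilage fibrils, stood at 4.10, 3.51 and 4.25 FPKM in Wtap-CKO, against 1.71, 1.89 and 1.35 FPKM in Wtap-flox. Here the 3 hearts of a group were close to each other and the groups were well apart (log2 fold change 0.91, SE 0.13, adjusted p = 0.00281, limma). The chains that share the type IX molecule with it were low in both groups, Col9a1 at 0.404 ± 0.181 FPKM in Wtap-CKO and 0.489 ± 0.0668 FPKM in Wtap-flox (SD, n = 3 each). Col9a3 stood at 0.390 ± 0.138 FPKM in Wtap-CKO and 0.347 ± 0.0472 FPKM in Wtap-flox.

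Col20a1, a FACIT chain, stood at 1.85, 2.24 and 5.11 FPKM in Wtap-CKO and at 0.279, 0.135 and 0.209 FPKM in Wtap-flox. Wtap-CKO 3 was the highest, unlike for Col8a1, Col11a1 and Col12a1, where it was the lowest of its group. Over the 3 libraries of a group, 795 reads lay behind the Wtap-CKO values and 55 behind those of Wtap-flox. The ratio of means was 14.8, the largest of the 5 higher chains, and the log2 fold change was 1.67 (SE 0.27, adjusted p = 0.00507, limma). Without Wtap-CKO 3 or any other library the adjusted p was at most 0.0271. The locus overlaps 9230112E08Rik, a transcript on the same strand, and the labels do not say how reads of the shared stretch were counted. That transcript was also higher, at 2.70, 3.17 and 3.45 FPKM in Wtap-CKO and 1.39, 1.16 and 0.993 FPKM in Wtap-flox (log2 fold change 0.91, adjusted p = 0.00288, limma), so the Col20a1 value is uncertain.

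The higher chains lie on 5 chromosomes in the GRCm38 coordinates of the table, Col8a1 (ENSMUSG00000068196) at chr16:57624258-57754737 on the minus strand, Col20a1 (ENSMUSG00000016356) at chr2:180986535-181018363 on the plus strand, Col11a1 (ENSMUSG00000027966) at chr3:114030540-114220718 on the plus strand, Col12a1 (ENSMUSG00000032332) at chr9:79598991-79718831 on the minus strand and Col9a2 (ENSMUSG00000028626) at chr4:121039385-121055322 on the plus strand. Each value covers the whole gene, so no exon or isoform is told apart.

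The promoters of the chains that were higher are shown because these genes were higher in the same hearts, with RefSeq sequences of GRCm38.p6 that run from 250 bases before to 50 bases after each annotated start. Windows were found for 35 of the 44 chains, and none was given for Col12a1. Col8a1 lies at chr16:57754688-57754987 on the minus strand, and on the plus strand lie Col11a1 at chr3:114030290-114030589, Col9a2 at chr4:121039316-121039615 and Col20a1 at chr2:180986285-180986584. Capitals mark matches on either strand to TATAAA (the TATA box), CCAAT (the CCAAT box), GGGCGG (a GC box, bound by Sp1), TGANTCA (bound by AP-1) and CATTCC (bound by TEAD factors), and matches that overlap would run together.
Col8a1: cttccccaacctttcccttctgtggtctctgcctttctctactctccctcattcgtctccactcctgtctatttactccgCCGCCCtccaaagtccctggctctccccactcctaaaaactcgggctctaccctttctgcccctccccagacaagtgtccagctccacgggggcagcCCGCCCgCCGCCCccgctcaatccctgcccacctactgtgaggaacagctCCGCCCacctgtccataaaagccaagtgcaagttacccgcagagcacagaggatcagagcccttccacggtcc
Col11a1: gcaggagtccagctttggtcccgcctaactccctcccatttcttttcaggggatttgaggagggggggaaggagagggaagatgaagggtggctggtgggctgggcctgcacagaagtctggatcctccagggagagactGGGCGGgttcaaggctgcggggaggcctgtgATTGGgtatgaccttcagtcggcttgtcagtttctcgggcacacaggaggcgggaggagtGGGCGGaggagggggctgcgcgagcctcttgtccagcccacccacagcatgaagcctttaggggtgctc
Col9a2: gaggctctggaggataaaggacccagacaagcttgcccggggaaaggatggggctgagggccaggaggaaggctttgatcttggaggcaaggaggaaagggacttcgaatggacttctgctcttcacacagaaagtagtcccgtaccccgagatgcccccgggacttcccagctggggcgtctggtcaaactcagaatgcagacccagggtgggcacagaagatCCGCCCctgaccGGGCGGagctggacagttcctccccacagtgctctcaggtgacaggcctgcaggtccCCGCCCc
Col20a1: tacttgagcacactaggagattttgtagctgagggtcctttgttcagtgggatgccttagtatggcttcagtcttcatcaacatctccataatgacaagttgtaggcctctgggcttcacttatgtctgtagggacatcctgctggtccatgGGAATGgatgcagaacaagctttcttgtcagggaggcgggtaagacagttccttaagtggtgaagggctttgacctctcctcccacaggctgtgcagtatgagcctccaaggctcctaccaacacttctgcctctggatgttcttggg

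Col8a1 held 4 GC boxes, Col9a2 held 3 and Col11a1 held 2 beside a CCAAT box. Col20a1 held neither a GC box nor a CCAAT box and had 1 match to CATTCC. A GC box was found in 22 of the 35 chains with a window (62.9%) and in 35.7% of all 32851 RefSeq windows. The 38 collagen windows had a median GC content of 59.9%, against 52.7% for all windows. For the other motifs the shares were 14.3% of chains and 13.6% of all windows for TATAAA, 37.1% and 37.4% for CCAAT, 2.86% and 7.81% for TGANTCA, and 14.3% and 14.7% for CATTCC, chains first. These matches describe letters in a window and say nothing of binding.

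**Figure D2:**
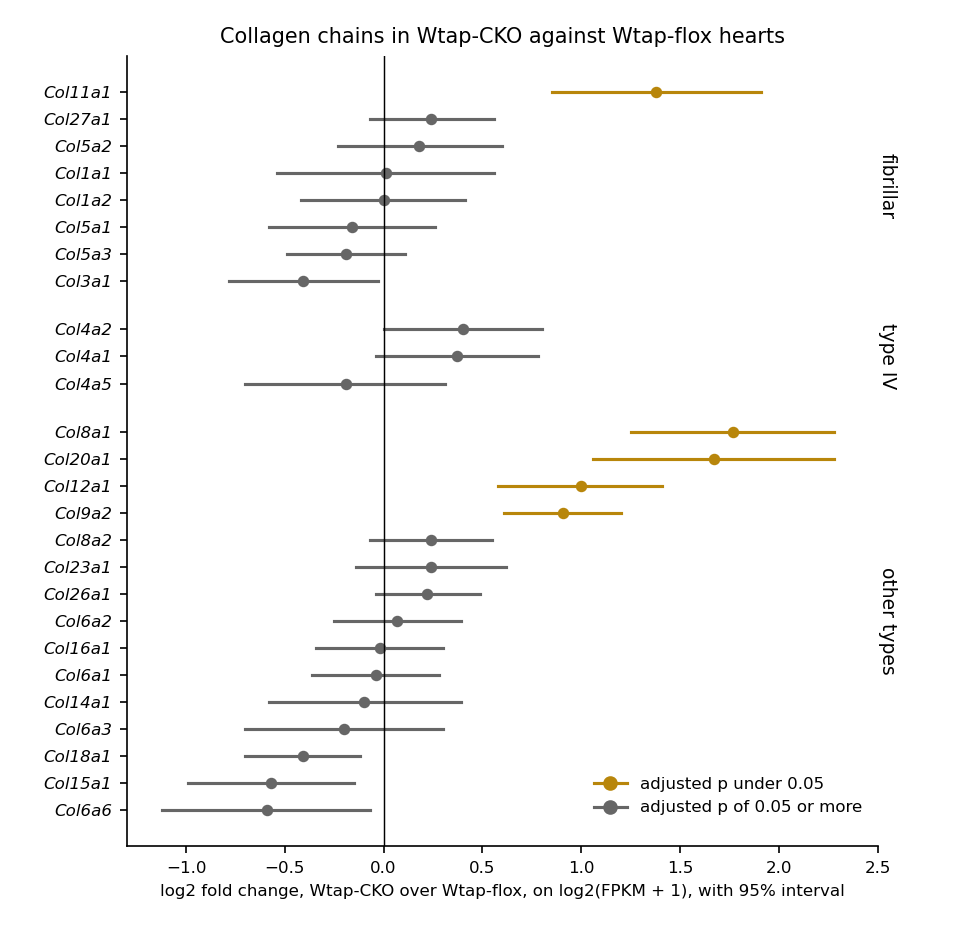
Log2 fold change of each tested collagen chain, Wtap-CKO over Wtap-flox, on log2(FPKM + 1), with its 95% interval from limma, grouped as fibrillar, type IV and other types. The 5 chains in gold passed an adjusted p of 0.05, with log2 fold changes between 0.91 and 1.77, and the intervals of Col3a1, Col15a1, Col18a1 and Col6a6 in grey lie below 0.

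Of the fibrillar chains, 8 of 11 were tested, 1 was higher and 0 lower, where 9.91% of all tested genes were higher and 6.69% lower. The median log2 fold change of the fibrillar chains was 0.00. Col1a1 and Col1a2, the chains of type I, differed by less than the spread between hearts. Col1a2 averaged 81.7 ± 18.3 FPKM in Wtap-CKO and 80.6 ± 6.19 FPKM in Wtap-flox (SD, n = 3 each). The Col1a1 libraries ran 254, 224 and 139 FPKM in Wtap-CKO and 217, 219 and 163 FPKM in Wtap-flox, so that Wtap-CKO spanned the whole range of Wtap-flox. The log2 fold change of Col1a1 was 0.01 (95% interval -0.54 to 0.56, adjusted p = 0.98, limma), and its sign turned under 6 of 18 alternatives.

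Col3a1, the chain of type III that shares fibrils with type I, stood at 204, 206 and 161 FPKM in Wtap-CKO and at 276, 243 and 236 FPKM in Wtap-flox. Its Wtap-CKO values lay below those of Wtap-flox without overlap. The log2 fold change of -0.41 (95% interval -0.78 to -0.03) did not pass (adjusted p = 0.128, limma), except with TPM scaling (adjusted p = 0.0474). In whole hearts, fewer cells of a type and less RNA per cell cannot be told apart. Among 8 fibroblast markers 3 were lower and 0 higher, where 6.69% of all tested genes were lower and 9.91% higher. The 3 were Lum (-1.02, adjusted p = 0.00468, limma), Dpt (-0.78) and Dcn (-0.60), which encode small matrix proteins. In the other direction, the transcription factor gene Tcf21 stood at 17.2, 17.4 and 17.9 FPKM in Wtap-CKO, above 14.4, 15.2 and 15.4 FPKM in Wtap-flox, and did not pass (0.21, adjusted p = 0.213, limma). Leaving out Wtap-CKO 3 kept the count at 3, and leaving out each other library in turn reduced it to 1, Lum. The summed level of the 8 markers was 167, 203 and 234 FPKM in Wtap-CKO and 307, 253 and 276 FPKM in Wtap-flox, and none of the 8 was at 0. Their part in the collagen values was not tested.

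The type V chains, which set the diameter of type I fibrils, did not pass. Col5a1 stood at 52.6, 58.4 and 38.9 FPKM in Wtap-CKO and at 60, 60.2 and 46.3 FPKM in Wtap-flox (log2 fold change -0.16). Col5a2 stood at 34.5, 31.4 and 20.7 FPKM in Wtap-CKO and at 25.6, 25.4 and 23.2 FPKM in Wtap-flox (0.18), and for both chains the groups overlapped. Col5a3 had a log2 fold change of -0.19. Col27a1, a fibrillar chain known from cartilage, stood at 2.08, 2.36 and 2.69 FPKM in Wtap-CKO and just above Wtap-flox at 2.03, 2.08 and 1.46 FPKM, with some values equal to 3 digits (0.24, adjusted p = 0.265, limma).

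Of the 6 type IV chains, 3 were tested and 0 passed, while 1 was higher at an unadjusted p under 0.05 and 0 passed by limma-voom. Their median log2 fold change was 0.37. Col4a1 and Col4a2, which form the common network of basement membranes in a fixed proportion, were the chains of highest level in Wtap-CKO. Col4a1 stood at 370, 398 and 295 FPKM in Wtap-CKO and at 282, 300 and 238 FPKM in Wtap-flox. Col4a2 stood at 290, 305 and 245 FPKM in Wtap-CKO and at 227, 234 and 176 FPKM in Wtap-flox. For Col4a2 the groups lay apart, while for Col4a1 the lowest Wtap-CKO heart fell just under the highest Wtap-flox heart. The log2 fold changes were 0.37 with a 95% interval of -0.04 to 0.78 for Col4a1 (adjusted p = 0.2, limma) and 0.40 with an interval of 0.00 to 0.80 for Col4a2 (adjusted p = 0.156, limma). Under quantile normalization Col4a1 had 0.06 and Col4a2 had 0.17. The genes overlap each other at their starts, so a few reads there are uncertain.

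Col4a1 and Col4a2 lie head to head on chromosome 8 and share the stretch from which both start, so their promoter windows are shown together. The Col4a1 window is chr8:11312777-11313076 on the minus strand and the Col4a2 window chr8:11312555-11312854 on the plus strand, and they share 78 bases, from 11312777 to 11312854. Capitals mark the same motifs as above.
Col4a1: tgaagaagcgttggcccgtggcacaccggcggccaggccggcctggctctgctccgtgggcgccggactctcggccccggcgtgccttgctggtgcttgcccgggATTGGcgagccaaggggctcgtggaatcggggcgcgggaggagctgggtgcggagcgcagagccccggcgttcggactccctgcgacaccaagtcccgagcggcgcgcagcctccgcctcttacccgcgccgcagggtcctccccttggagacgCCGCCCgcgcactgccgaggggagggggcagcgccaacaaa
Col4a2: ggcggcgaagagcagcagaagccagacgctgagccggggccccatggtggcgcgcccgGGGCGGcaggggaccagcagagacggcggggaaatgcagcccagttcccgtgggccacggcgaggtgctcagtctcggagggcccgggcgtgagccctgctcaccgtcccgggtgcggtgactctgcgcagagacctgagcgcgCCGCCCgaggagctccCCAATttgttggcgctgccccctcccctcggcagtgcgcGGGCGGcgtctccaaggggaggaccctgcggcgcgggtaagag

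The Col4a1 window held 1 CCAAT box and 1 GC box, and the Col4a2 window held 1 CCAAT box and 3 GC boxes. The GC box of the Col4a1 window lies in the shared bases and is the same site as the last GC box marked for Col4a2. The GC contents of the windows were 74.0% for Col4a1 and 73.7% for Col4a2. The ratio of Col4a1 to Col4a2 within a library was 1.26 ± 0.0495 in Wtap-CKO and 1.29 ± 0.0538 in Wtap-flox (SD, n = 3 each; exact permutation test, two-sided p = 0.5).

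Col4a5, a chain of another type IV network, stood at 22, 26.6 and 13.7 FPKM in Wtap-CKO and at 24.1, 25.3 and 20.2 FPKM in Wtap-flox, with overlapping groups (log2 fold change -0.19, 95% interval -0.70 to 0.31, adjusted p = 0.594, limma). The ratio of Col4a5 to Col4a1 was 0.0594, 0.0669 and 0.0466 in Wtap-CKO, against 0.0852, 0.0844 and 0.0850 in Wtap-flox. The 3 Wtap-flox ratios were nearly equal and each Wtap-CKO ratio lay below them, at the smallest p that 3 against 3 allows (exact permutation test, two-sided p = 0.1). Among 8 endothelial markers 1 was higher, Emcn (0.87), and 1 lower, Kdr (-0.43), where 9.91% of all tested genes were higher and 6.69% lower. The Kdr call was lost without any 1 library, while Tek (-0.37) and Tie1 (-0.19) did not pass. The summed level of the 8 markers was 276, 284 and 296 FPKM in Wtap-CKO and 312, 295 and 285 FPKM in Wtap-flox. Their part in the type IV values was not tested.

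Basement membranes also contain laminins, nidogens and perlecan. Of 20 such partners 15 were tested, 3 were higher and 2 lower, where 9.91% of all tested genes were higher and 6.69% lower. The median log2 fold change of the partners was -0.10, and it ran from -0.27 without Wtap-flox 3 to 0.01 without Wtap-CKO 3. Without Wtap-CKO 1, Wtap-flox 1 or Wtap-flox 3 the count of lower genes was 1. The perlecan gene Hspg2 had a log2 fold change of -0.02 and the nidogen gene Nid1 had 0.03, both named after their values were seen. Egflam, a laminin-domain protein that binds dystroglycan, was lower (1.67 ± 0.0982 FPKM in Wtap-CKO and 3.90 ± 0.419 FPKM in Wtap-flox, SD, n = 3 each; -0.87, adjusted p = 0.00234, limma). Tinagl1, a secreted basement membrane protein, was higher by 0.94 and the calcium-binding matrix protein Smoc1 by 0.71. Smoc2, a relative of Smoc1, fell by 0.59, a call lost without a filter, Wtap-CKO 1, Wtap-flox 1 or Wtap-flox 3.

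Of the 27 chains of other types, 15 were tested, 4 were higher and 0 lower, where 9.91% of all tested genes were higher and 6.69% lower. The 15 include Col20a1, called higher, and the uncalled Col8a2, which reached the threshold for testing through their Wtap-CKO values alone. By limma-voom 2 of the 15 chains were lower, and at an unadjusted p under 0.05 3 were lower. Both multiplexins, collagens of the zone next to basement membranes, were among these 3. Col15a1 stood at 28.9, 38 and 28 FPKM in Wtap-CKO and at 56.6, 49.3 and 37.3 FPKM in Wtap-flox. Col18a1, whose C-terminal fragment is endostatin, stood at 16.5, 19.3 and 16.6 FPKM in Wtap-CKO and at 24.4, 25.3 and 20.9 FPKM in Wtap-flox. The highest Wtap-CKO value of Col15a1 just exceeded the lowest of Wtap-flox, and for Col18a1 the groups lay apart. The log2 fold changes were -0.57 for Col15a1 (SE 0.19, adjusted p = 0.0673, limma) and -0.41 for Col18a1 (SE 0.13, adjusted p = 0.059, limma). Col15a1 passed with TPM scaling, by limma-voom, without Wtap-CKO 2 and without Wtap-flox 3, and its adjusted p ranged from 0.0346 to 0.196 over 18 alternatives. Col18a1 passed with TPM, upper-quartile and quantile scaling and by limma-voom, with adjusted p from 0.0233 to 0.199. Col15a1 overlaps the antisense transcript Gm12426 (means of 0.831 FPKM in Wtap-CKO and 1.26 FPKM in Wtap-flox) and Col18a1 overlaps the coding gene Slc19a1 (2.17 FPKM in Wtap-CKO and 1.81 FPKM in Wtap-flox), and whether strand was used in the counting is not stated, so reads of the overlaps are uncertain.

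Type VI forms beaded filaments that anchor cells to the matrix around them, and 0 of its 4 tested chains passed by limma or by limma-voom, with 1 lower at an unadjusted p under 0.05. Col6a1 stood at 72.4, 77.1 and 70.5 FPKM in Wtap-CKO and at 84.4, 76.2 and 66.1 FPKM in Wtap-flox. Col6a2 stood at 44.2, 51.4 and 44.2 FPKM in Wtap-CKO and at 50.1, 44.3 and 39.3 FPKM in Wtap-flox. Both overlapped, with log2 fold changes of -0.04 and 0.07, and Col6a3 had -0.20 (95% interval -0.70 to 0.30). Col6a6, which can take the place of the Col6a3 chain, stood at 2.70, 4.56 and 2.28 FPKM in Wtap-CKO and at 6.88, 4.65 and 4.22 FPKM in Wtap-flox. Wtap-CKO 2 lay within the Wtap-flox range and the other Wtap-CKO hearts below it (log2 fold change -0.59, adjusted p = 0.114, limma), and without Wtap-CKO 2 the chain passed (adjusted p = 0.0253, limma).

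Among the remaining tested chains none passed. The FACIT chains Col14a1 and Col16a1, which bind to fibrils, had log2 fold changes of -0.10 and -0.02 with overlapping groups. Col26a1, known from testis and ovary, stood at 2.58, 2.45 and 2.41 FPKM in Wtap-CKO, above 2.10, 2.12 and 1.73 FPKM in Wtap-flox (0.22, adjusted p = 0.224, limma). Col23a1, a transmembrane collagen, had 0.24 with overlapping groups.

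The 18 chains under 1 FPKM included Col2a1 and Col10a1, the chains of resting and hypertrophic cartilage. Col2a1 averaged 0.0839 FPKM in Wtap-CKO and 0.0799 FPKM in Wtap-flox, and Col10a1 had 6 reads over the Wtap-CKO libraries and 0 over those of Wtap-flox, too few to compare and lying within the gene Nt5dc1. At a mean of at least 0.1 FPKM 11 of the 18 could be tested and 0 passed (limma), with 1 at an unadjusted p under 0.05. That chain was Col24a1, a fibrillar collagen of bone, at 0.512, 0.323 and 0.387 FPKM in Wtap-CKO and 1.17, 0.545 and 0.741 FPKM in Wtap-flox (log2 fold change -0.36, adjusted p = 0.181, limma). Each Wtap-CKO heart lay below each Wtap-flox heart. Col4a6, which pairs with Col4a5, stood at 0.725 ± 0.181 FPKM in Wtap-CKO and 1.16 ± 0.254 FPKM in Wtap-flox (SD, n = 3 each), and Col4a3 and Col4a4 overlapped. The transmembrane chain Col13a1 and the nerve-associated Col28a1 lay above Wtap-flox in each Wtap-CKO heart, with means of 0.600 and 0.241 FPKM in Wtap-CKO and 0.405 and 0.144 FPKM in Wtap-flox. Col11a2 and the epithelial chains Col7a1 and Col17a1 overlapped, as did Col6a4, Col6a5, Col9a1, Col9a3, Col19a1, Col22a1 and Col25a1.

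Markers of cells that make some of these chains elsewhere were low in both groups. Of 6 chondrocyte markers 2 were tested and 0 passed by limma, with 1 higher and 1 lower at an unadjusted p under 0.05 and 1 lower by limma-voom. Their summed level was 3.18 to 4.5 FPKM in Wtap-CKO and 3.68 to 4.43 FPKM in Wtap-flox. The proteoglycan gene Acan stood at 0.879 ± 0.346 FPKM in Wtap-CKO and 1.73 ± 0.430 FPKM in Wtap-flox (SD, n = 3 each; -0.54, adjusted p = 0.0709, limma). The matrix gene Comp stood at 1.98, 2.18 and 3.31 FPKM in Wtap-CKO and 1.47, 1.53 and 1.77 FPKM in Wtap-flox (0.41, adjusted p = 0.11, limma). Acan lay lower and Comp higher in each Wtap-CKO heart than in each Wtap-flox heart, and Matn1 was at 0 in Wtap-CKO 1, Wtap-CKO 2 and Wtap-flox 1. Of 3 keratinocyte markers 1 was tested, Krt10 (-0.38), and 0 passed by limma or limma-voom, with 1 lower at an unadjusted p under 0.05, and Krt5 was at 0 in all 6 libraries. Their sum was 0.967 to 1.49 FPKM in Wtap-CKO and 1.61 to 2.03 FPKM in Wtap-flox.

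Counts for markers of other heart cells stand beside the 9.91% of all tested genes that were higher and the 6.69% that were lower. Of 6 tested macrophage markers 3 were higher, C1qb (0.94), C1qa (0.78) and Mrc1 (0.41), while Csf1r (0.30) did not pass, with a summed level of 46.2 to 72.7 FPKM in Wtap-CKO and 31.1 to 35.8 FPKM in Wtap-flox. That count was 0 without Wtap-flox 1 or Wtap-flox 2, 1 without Wtap-CKO 1 or Wtap-flox 3, and 2 without Wtap-CKO 2 or Wtap-CKO 3. Of 3 tested epicardial markers 1 was higher, Krt19 (1.35), while Aldh1a2 (0.28) and Wt1 (0.22) did not pass, with a summed level of 35.7 to 43.5 FPKM in Wtap-CKO and 27.9 to 31.6 FPKM in Wtap-flox. Of 8 tested smooth muscle and pericyte markers 2 were higher, Cnn1 (1.11) and Cspg4 (0.67), and 1 lower, Abcc9 (-1.13), while Rgs5 (-0.46) did not pass, with sums of 779 to 1003 FPKM in Wtap-CKO and 612 to 838 FPKM in Wtap-flox. The 2 became 0 without Wtap-CKO 1 or Wtap-flox 3 and 1 without Wtap-CKO 2, Wtap-flox 1 or Wtap-flox 2. Of 8 cardiomyocyte markers 1 was lower, Ryr2 (-0.97), a call that held without Wtap-CKO 2 or Wtap-flox 3 but not without the others. Actc1 stood at 9396, 9331 and 10337 FPKM in Wtap-CKO, above 6218, 9182 and 7501 FPKM in Wtap-flox, and did not pass (0.36, adjusted p = 0.271, limma). Tnni3 (-0.27) and Tnnt2 (0.26) did not pass either. Of 3 tested erythroid markers 0 passed by limma, at an unadjusted p or by limma-voom, with 0.25 for Alas2, 0.33 for Hbb-bs and 0.19 for Hba-a1. The part of these cells in the collagen values was not tested.

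Summed over the 44 chains, the collagen level was 1585, 1619 and 1212 FPKM in Wtap-CKO and 1498, 1470 and 1206 FPKM in Wtap-flox, so that the third library was lowest in both groups. Type IV held 43.1%, 45.2% and 45.8% of collagen FPKM in Wtap-CKO, against 35.8%, 38.2% and 36.1% in Wtap-flox. Fibrillar chains held 41.5%, 38.1% and 35.8% in Wtap-CKO, against 44.8%, 43.9% and 45.8% in Wtap-flox. In each Wtap-CKO heart type IV exceeded the fibrillar chains, and in each Wtap-flox heart the fibrillar chains exceeded type IV. The summed levels of both classes overlapped between the groups. Type IV summed to 683, 732 and 556 FPKM in Wtap-CKO and to 536, 561 and 436 FPKM in Wtap-flox. Fibrillar chains summed to 658, 618 and 434 FPKM in Wtap-CKO and to 671, 645 and 552 FPKM in Wtap-flox. Multiplexins held 3.36 ± 0.435% in Wtap-CKO and 5.10 ± 0.289% in Wtap-flox (SD, n = 3 each). Short-chain collagens held 0.569 ± 0.149% in Wtap-CKO and 0.160 ± 0.0127% in Wtap-flox. The shares of type IV, fibrillar chains, multiplexins and short-chain collagens, 4 in all, each lay apart between the groups. The values of single genes lay apart for 37.1% of all genes tested. That percentage is for genes and was not computed for shares, which depend on each other. The share of FACIT chains lay apart too, at 2.91% to 3.17% in Wtap-CKO and 2.67% to 2.83% in Wtap-flox. The joint share of Col26a1 and Col28a1 also lay apart, while the shares of type VI, of transmembrane chains and of Col7a1 overlapped. The leading 4 chains together made up 66.9% to 70.5% of collagen FPKM over the 6 libraries and the leading 10 made up 90.8% to 91.4%. Shares sum to the whole, so a larger share of 1 class lowers the others.

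**Figure D3:**
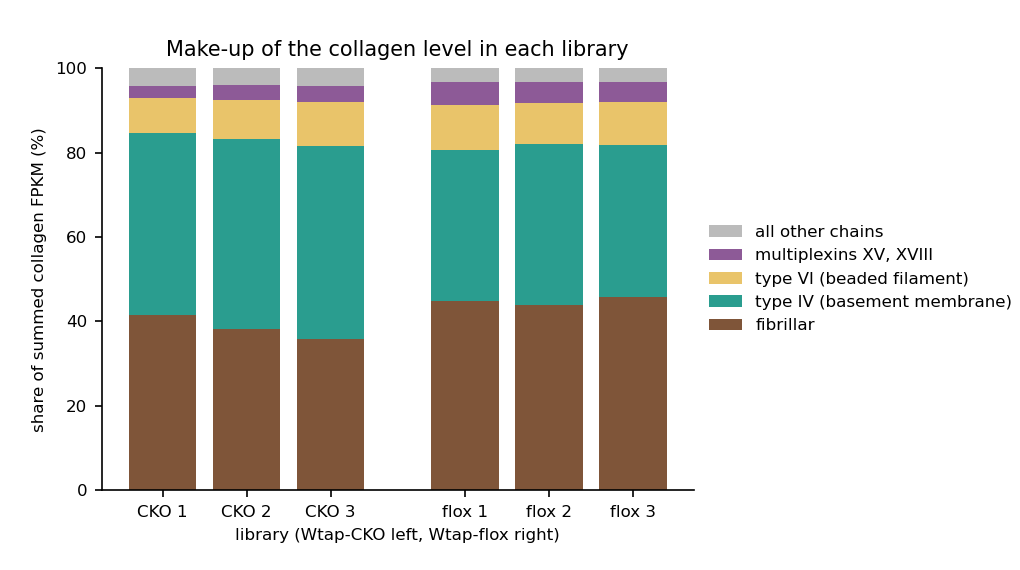
Share of summed collagen FPKM in percent held by each class in each library, Wtap-CKO at the left and Wtap-flox at the right (n = 3 each). The type IV segment covers 43.1% to 45.8% in Wtap-CKO and 35.8% to 38.2% in Wtap-flox, and the fibrillar segment 35.8% to 41.5% in Wtap-CKO and 43.9% to 45.8% in Wtap-flox.

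Ratios of chains within a library do not depend on how that library was scaled, and 13 pairs were compared. The groups lay apart for 5 pairs and overlapped for 8. This is near the 37.1% of all genes tested for which the values of single genes lay apart. Each of the 5 gave an exact two-sided permutation p of 0.1, the smallest that 3 against 3 allows, and 0.26 after Benjamini-Hochberg adjustment over the 13 pairs, so none could pass. The ratio of Col14a1 to Col12a1, fibril-binding FACIT chains, was 4.25, 4.42 and 4.10 in Wtap-CKO, against 11.7, 9.95 and 12 in Wtap-flox. The ratio of Col8a1 to Col8a2 was 7.83, 4.92 and 4.32 in Wtap-CKO, against 1.47, 1.3 and 1.64 in Wtap-flox. Wtap-CKO lay below Wtap-flox for the first of these ratios and above it for the other, where the Wtap-CKO hearts were widely spread. Each holds a chain already called higher, Col12a1 in the first and Col8a1 in the other, set against an uncalled chain.

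The groups lay apart by less for Col5a2 to Col5a1, at 0.575 ± 0.0702 in Wtap-CKO and 0.449 ± 0.0436 in Wtap-flox (SD, n = 3 each). For Col6a1 to Col6a2 they lay apart at 1.58 ± 0.0724 in Wtap-CKO and 1.70 ± 0.0200 in Wtap-flox (SD, n = 3 each). Neither ratio could pass. The ratio of the type I chains, Col1a1 to Col1a2, was 2.49 ± 0.230 in Wtap-CKO and 2.47 ± 0.227 in Wtap-flox (SD, n = 3 each; exact permutation test, two-sided p = 0.7). Col3a1 to Col1a1 was 0.803, 0.920 and 1.15 in Wtap-CKO and 1.27, 1.11 and 1.44 in Wtap-flox, where Wtap-CKO 3 overlapped Wtap-flox 2 (exact permutation test, two-sided p = 0.2).

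**Figure D4:**
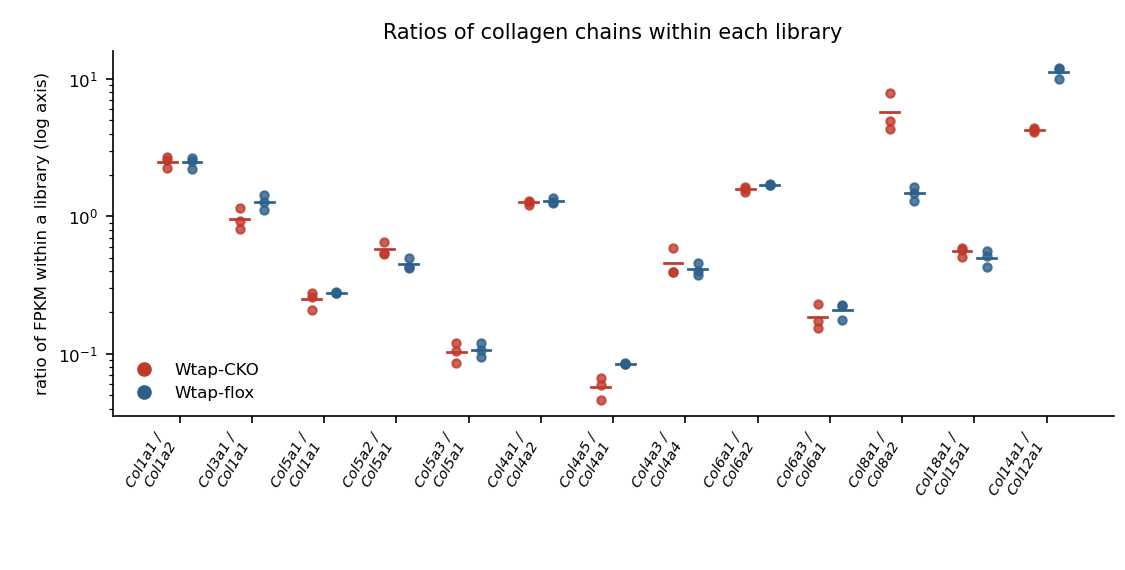
Ratio of FPKM of 2 collagen chains within each library on a log axis, Wtap-CKO (red) left of Wtap-flox (blue), with a bar at each mean (n = 3 per group). Col14a1/Col12a1 spans 4.10 to 4.42 in Wtap-CKO and 9.95 to 12 in Wtap-flox, and Col8a1/Col8a2 spans 4.32 to 7.83 in Wtap-CKO and 1.3 to 1.64 in Wtap-flox.

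Of 19 genes that modify collagen inside the cell, all tested, 12 were higher and 1 lower in Wtap-CKO, where 9.91% of all tested genes were higher and 6.69% lower. The median log2 fold change of the list was 0.51. Plod2, the lysyl hydroxylase of collagen ends, stood at 29.5, 27.2 and 17.9 FPKM in Wtap-CKO and at 7.99, 9.66 and 8.04 FPKM in Wtap-flox. The groups were well apart (log2 fold change 1.41, SE 0.19, adjusted p = 0.00208, limma). Fkbp10, a prolyl isomerase that works with Plod2, stood at 68.1 ± 6.35 FPKM in Wtap-CKO and 37.0 ± 0.832 FPKM in Wtap-flox (SD, n = 3 each; 0.86). Its relative Fkbp14 had 0.75 and the prolyl hydroxylase subunit P4ha1 had 0.79, and both passed. In the opposite direction, the collagen galactosyltransferase Colgalt2 fell by 0.60. The collagen chaperone Serpinh1, named after its values were seen, had 0.47 and did not pass (adjusted p = 0.0837, limma). Plod2, Fkbp10, Fkbp14 and P4ha1 passed under all 18 alternatives. The count of 12 was 7 with TPM scaling, without a filter, without Wtap-CKO 1 and without Wtap-flox 3, and 8 without Wtap-flox 1 or Wtap-flox 2. Colgalt2 did not pass without a filter or without Wtap-CKO 1, Wtap-CKO 2, Wtap-flox 1 or Wtap-flox 3.

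Outside the cell, of 14 tested genes that cut and crosslink procollagen 4 were higher and 0 lower, where 9.91% of all tested genes were higher and 6.69% lower. At an unadjusted p under 0.05 6 were higher and 1 lower, and by limma-voom 5 were higher and 1 lower. The median log2 fold change was 0.27. The 4 were the transglutaminase Tgm2 (1.24), the lysyl oxidases Loxl2 (0.71) and Lox (1.21), which start crosslinks between chains, and Pcolce (0.73), which aids removal of the C-terminal propeptide. Lox stood at 37.5, 27.8 and 17.1 FPKM in Wtap-CKO and at 10.4, 12.3 and 9.76 FPKM in Wtap-flox. The Wtap-CKO hearts were spread but above each Wtap-flox heart (adjusted p = 0.0188, limma), and Lox did not pass without a filter, Wtap-CKO 2, Wtap-flox 1 or Wtap-flox 3. Adamts3, which removes the N-terminal propeptide, had -0.65 and did not pass (adjusted p = 0.0514, limma). Of 13 genes listed for collagen secretion 0 passed by limma, and their median was -0.07. At an unadjusted p under 0.05 2 of the 13 were higher and 1 lower, and by limma-voom 1 was higher. The genes of smallest p were Creb3l2 (0.54), Trappc2 (-0.42), Vps33b (0.29) and Mia3 (0.20).

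**Figure D5:**
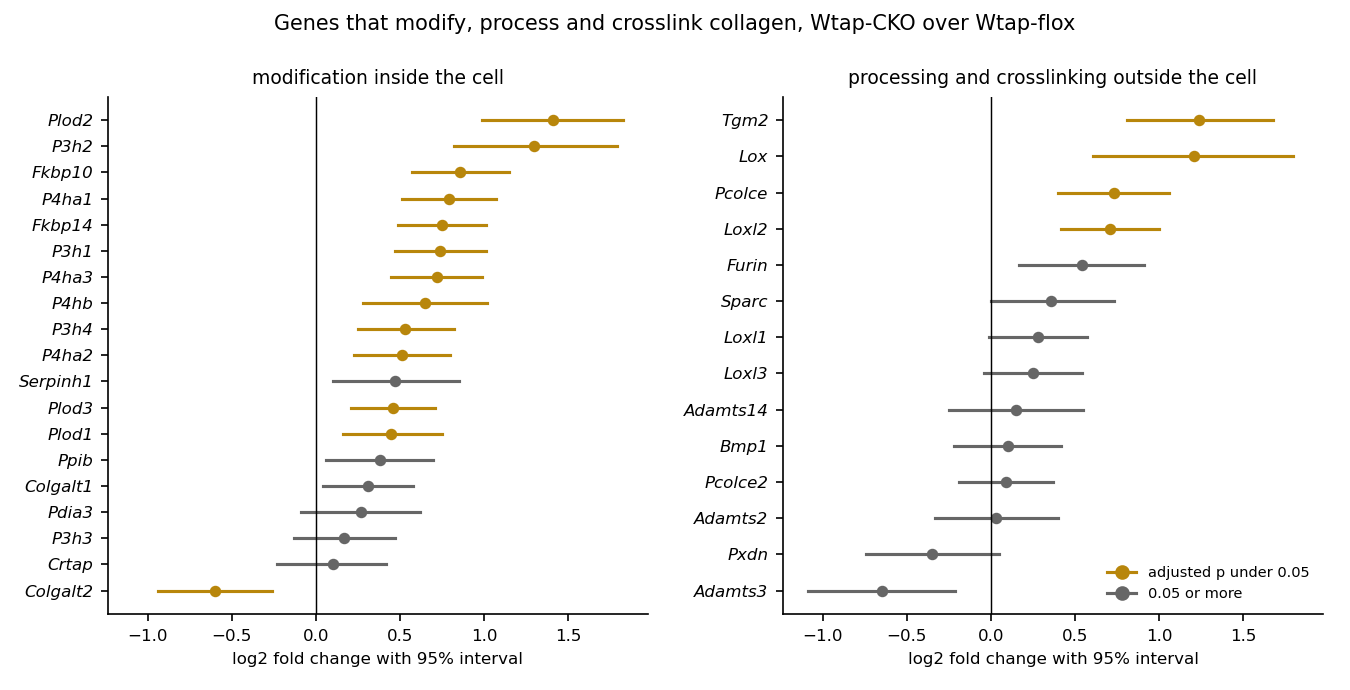
Log2 fold change, Wtap-CKO over Wtap-flox, with its 95% interval from limma for 19 genes of collagen modification inside the cell (left) and 14 of processing and crosslinking outside it (right). Gold marks an adjusted p under 0.05, held by 12 higher and 1 lower gene at the left and by 4 higher genes at the right.

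Of 12 collagen receptors and uptake genes 7 were tested, 2 were higher and 0 lower, where 9.91% of all tested genes were higher and 6.69% lower. At an unadjusted p under 0.05 3 of the 7 were higher and 0 lower, and by limma-voom 2 were higher. Their median log2 fold change was 0.36. Ddr1, a receptor kinase that binds collagen, stood at 59.4, 67.4 and 53.9 FPKM in Wtap-CKO and at 28.4, 28.5 and 25.7 FPKM in Wtap-flox, well apart (log2 fold change 1.10, adjusted p = 0.00156, limma). The integrin chain Itga1 had 0.72 and passed, but not without a filter, Wtap-CKO 1, Wtap-flox 1 or Wtap-flox 3. The count of 2 was 1 without any of those libraries and 3 without Wtap-CKO 2 or Wtap-CKO 3. Mrc2 (0.36) and Pdpn (0.39) did not pass. Ddr2, the related receptor of fibroblasts, had -0.04.

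Of 20 known regulators of collagen genes 19 were tested, 7 were higher and 1 lower, where 9.91% of all tested genes were higher and 6.69% lower. Their median was 0.09 and turned to -0.06 with TPM scaling. The list was not split by whether a regulator raises or lowers collagen genes, so the count gives no direction for the chains. The growth factor genes Tgfb2 (1.93, adjusted p = 0.000204, limma) and Tgfb3 (1.21), the matricellular gene Ctgf (2.33) and the transcription factor gene Cebpb (1.61) were higher. So were Scx (1.59), Meox1 (1.03) and Smad7 (0.74), named after their values were seen, and the Smad7 call held under 11 of 18 alternatives. Tgfb2 stood at 23.9, 27.4 and 20.2 FPKM in Wtap-CKO and at 5.22, 6.07 and 5.18 FPKM in Wtap-flox, with the groups far apart. Smad3, a signal transducer of TGF-beta, was lower (-0.50, adjusted p = 0.0385, limma), a call lost with the replicate block, at a mean of at least 0.1 FPKM, and without a filter, Wtap-CKO 1, Wtap-CKO 3, Wtap-flox 1 or Wtap-flox 2. Tgfb1, named after its values were seen, had 0.09.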

How the data were processed

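The authors deposited FPKM per gene, 1 column per library, all used. Per the submitters' processing notes, tools were CASAVA, HISAT2 2.0.5, featureCounts 1.5.0-p3 and DESeq2 1.20.0. The notes name GRCm39, but 44 of 44 chains matched GRCm38.p6 positions to 1000 bases and 3 of 44 matched GRCm39, so coordinates are given as GRCm38. FPKM times length was a whole multiple of a step per library for 100% of values (tolerance 0.01 of a step), so reads were recovered. They sum to 15649028 to 18045599 per library.

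Genes averaging 1 FPKM or more were tested with limma 3.58.1 (R 4.3.3) on log2(FPKM + 1), with a variance trend, robust moderation, two-sided tests and Benjamini-Hochberg adjustment at 0.05 over all 12568 genes. Alternatives were other pseudocounts, filters, scalings and limma settings, limma-voom with TMM factors on recovered reads, a replicate block, and each library left out. On simulated data of 12568 genes, 78% of 100 genes changed 2-fold and 98% of 100 changed 4-fold were recovered. Of 197 calls 21 were false, a larger share than the adjusted p threshold of 0.05 aims at. The simulation gave each gene the same relative spread beyond counting noise. These rates therefore need not hold for chains as uneven as Col8a1 in Wtap-CKO (7.19 ± 2.88 FPKM, SD, n = 3). Chain ratios used exact permutation tests. Tables were made with Python 3.11.15, pandas 2.3.3 and scipy 1.17.1, and figures with matplotlib 3.10.9.

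The chains and the gene lists were chosen with earlier results of these data known. The text names each chain and, from each list, up to 4 genes of smallest adjusted p and the first in the opposite direction, plus members at 0 that bear on a cell type. Genes named outside this rule are said to be so. 1 marker list is not reported here.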

Additional observations from a re-analysis of the deposited data

How the results depend on the processing

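The 5 higher chains passed in 85 of 85 combinations of chain and alternative that tested them. At a mean of at least 5 FPKM they were not tested, so 0 chains were higher, 0 fibrillar and 0 other chains were called. The count of lower chains was 3 with TPM scaling, 2 by limma-voom, 1 with quantile and 1 with upper-quartile scaling, and 0 to 2 with a library left out. Fibrillar chains called were 2 with TPM scaling. The 21 uncalled chains stayed uncalled in 363 of 373 combinations, with 21 changes of sign. Over all genes, 1206 were called without a filter and 1195 to 2012 with a library left out, fits with fewer samples or more genes.

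Deviations of same-numbered libraries from their group means correlated at -0.216, -0.075 and -0.076, so the numbers were not taken to pair them. A replicate block gave 1673 changed genes, with 5 collagen chains higher and 0 lower. With 3 libraries a group the intervals of abundant chains are wide, as for Col1a1 (95% interval -0.54 to 0.56), so a chain that did not pass is not shown to be alike in both groups.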
